A study of Rattus norvegicus with 4 samples.

Results

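The genes described here are 35 genes of the oligodendrocyte lineage and of myelin, listed by name. On the array, 33 of them were found among 15443 named genes, each represented by its brightest probe, while Enpp6 and Gjc3 were not analysed here. They fall into 26 genes of the mature, myelin-forming cell, 3 transcription factors that mark the whole lineage (Sox10, Olig1 and Olig2) and 4 genes of the precursor and newly forming cell (Pdgfra, Cspg4, Gpr17 and Bcas1). All 33 were well above background on all 4 arrays, and 0 of them had a saturated spot.

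Oligodendrocytes wrap the axons of the brain and spinal cord in myelin, a stack of membrane that speeds conduction and is rich in galactolipids and in a small set of proteins. They arise from precursor cells, recognised by the receptor Pdgfra and the proteoglycan Cspg4 (NG2), which pass through a newly forming stage before Myrf and Sox10 drive the genes of mature myelin. White matter holds most of this myelin, and the cerebellum and the prefrontal cortex both contain it.

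The samples were cerebellum and prefrontal cortex of male rats described as normal, which had received no drug or genetic change named in the labels. Immobility of 106 rats was measured by forced swimming, a test in which long immobility in water is read as depressive-like behaviour, and rats with such behaviour (depressive) or with average scores (control) were selected. Per the labels, the brain was cut 1 week later, after perfusion with saline, into slices 1 mm thick, the prefrontal cortex from 3.2 mm to 4.2 mm before the bregma and the cerebellum from 9.8 mm to 10.8 mm behind it. Each group was 1 pool of RNA from 4 rats on 1 array, so that each difference between 2 arrays stood without a replicate, and the labels do not say whether the cerebellum and cortex pools came from the same rats, nor the rats' strain or age.

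Values are the processed signal of the scanner, which is in arbitrary fluorescence units, and log2 differences after the array's 75th percentile (3116 to 4369.5 over the 4 arrays) was subtracted. For 2 samples, those of control cortex and depressive cerebellum, the linked scanner files matched each other's column of the deposited value table, and their own columns only at r = 0.933. The value table was followed, and values with the files as linked are given beside the counts below. Under the reading followed, 14 of 14 cerebellar marker genes were at least 2-fold higher in the cerebellum in both states, and 10 of 13 cortical marker genes were at least 2-fold lower. Such markers say nothing about which array of a tissue is the depressive one. The description field of each depressive sample names the other tissue, and the title, source name and tissue field were followed.

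The promoters of 5 members from the mature and precursor groups are shown. Mobp, Aspa and Cldn11 were the mature members in the promoter table with the largest difference between states in prefrontal cortex (Mbp left aside). Pdgfra and Cspg4 are genes of the precursor. The sequences are the 250 bases before the transcription start, from RefSeq on GRCr8, written 5′ to 3′ on the strand of the gene. They lie at chr8:128746982-128747231 (plus strand) for Mobp, chr10:58439038-58439287 (minus strand) for Aspa, chr2:114149540-114149789 (minus strand) for Cldn11, chr14:33408517-33408766 (minus strand) for Pdgfra and chr8:66160692-66160941 (plus strand) for Cspg4. Capitals mark matches, on either strand, to a SOX motif (ACAANG), an E-box of the kind read by Olig factors (CANCTG) or a MYRF motif (CTGGNAC). Matches to different motifs may overlap.
Mobp: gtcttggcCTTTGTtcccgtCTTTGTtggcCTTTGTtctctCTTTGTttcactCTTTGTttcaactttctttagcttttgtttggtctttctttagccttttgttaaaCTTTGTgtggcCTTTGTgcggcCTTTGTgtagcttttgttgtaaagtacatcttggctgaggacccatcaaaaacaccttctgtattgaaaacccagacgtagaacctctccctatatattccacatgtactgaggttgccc
Aspa: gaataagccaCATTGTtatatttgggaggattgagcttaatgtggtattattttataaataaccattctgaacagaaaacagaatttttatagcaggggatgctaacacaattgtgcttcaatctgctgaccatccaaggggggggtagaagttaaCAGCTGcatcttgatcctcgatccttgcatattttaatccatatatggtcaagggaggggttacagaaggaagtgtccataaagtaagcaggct
Cldn11: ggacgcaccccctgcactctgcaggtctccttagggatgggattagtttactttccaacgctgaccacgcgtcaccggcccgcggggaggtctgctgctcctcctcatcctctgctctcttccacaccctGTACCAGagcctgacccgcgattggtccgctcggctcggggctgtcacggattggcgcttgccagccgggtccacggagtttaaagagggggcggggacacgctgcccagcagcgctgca
Pdgfra: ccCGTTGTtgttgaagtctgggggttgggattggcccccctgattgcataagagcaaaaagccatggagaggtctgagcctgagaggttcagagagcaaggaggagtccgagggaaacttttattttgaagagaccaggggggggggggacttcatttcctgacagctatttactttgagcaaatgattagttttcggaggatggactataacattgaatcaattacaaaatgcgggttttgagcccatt
Cspg4: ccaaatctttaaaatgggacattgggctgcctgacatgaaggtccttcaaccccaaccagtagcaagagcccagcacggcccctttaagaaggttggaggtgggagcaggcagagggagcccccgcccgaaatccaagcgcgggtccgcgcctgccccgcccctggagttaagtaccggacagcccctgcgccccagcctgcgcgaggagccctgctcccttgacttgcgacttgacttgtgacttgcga
The Mobp window held 8 matches to the SOX motif, all of them CTTTGT, the reverse complement of ACAAAG, in a repeated stretch. Aspa held 1 SOX match and 1 E-box, Cldn11 held 1 MYRF match, Pdgfra held 1 SOX match and Cspg4 held 0 matches to any of the 3 motifs. Promoters were found for 26 of the 35 members. Of the 22 windows of mature members, 31.8% held the SOX motif against 36.9% of all 33469 promoter windows. The E-box was in 50% against 43.3%, and the MYRF motif in 31.8% against 14.8%. A match describes letters in the window and was not tested as a binding site.

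The first comparison set the cerebellum against the prefrontal cortex. Genes of mature myelin were higher in the cerebellum, and the precursor genes Pdgfra and Cspg4 were lower there. In the control pools 25 of 26 mature members (and 49.1% of all genes) lay above 0, at a median log2 difference of 0.98 (1.97-fold), where the median of all genes was -0.01. In the depressive pools 24 of 26 did (46.1% of genes), with a median of 0.70 (1.63-fold), against -0.06 for all genes. The 4 precursor and newly forming members had medians of -0.24 and -0.41. In bulk tissue, fewer cells of a type and less RNA per cell cannot be told apart.

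In the control pools 12 of 33 members were at least 2-fold higher in the cerebellum, a size that 10.3% of 12917 genes reached, and 1 member was at least 2-fold lower, as were 14.2% of genes. The depressive pools had 8 of 33 members at least 2-fold higher (9.27% of genes) and 1 lower (15.0% of genes). With the 2 states as replicates of the tissue comparison, limma's moderated test with Benjamini-Hochberg adjustment called 23 of 33 members higher (34.7% of 11623 genes) and 4 lower (38.0% of genes). This fit had 1 residual degree of freedom per gene, and called 72.8% of genes either way. Normexp background correction left 3 members at least 2-fold higher in the depressive pools. With the scanner files as linked, the medians of the mature members were 0.03 and -0.23, and 0 members were called by limma in either direction.

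**Figure D1:**
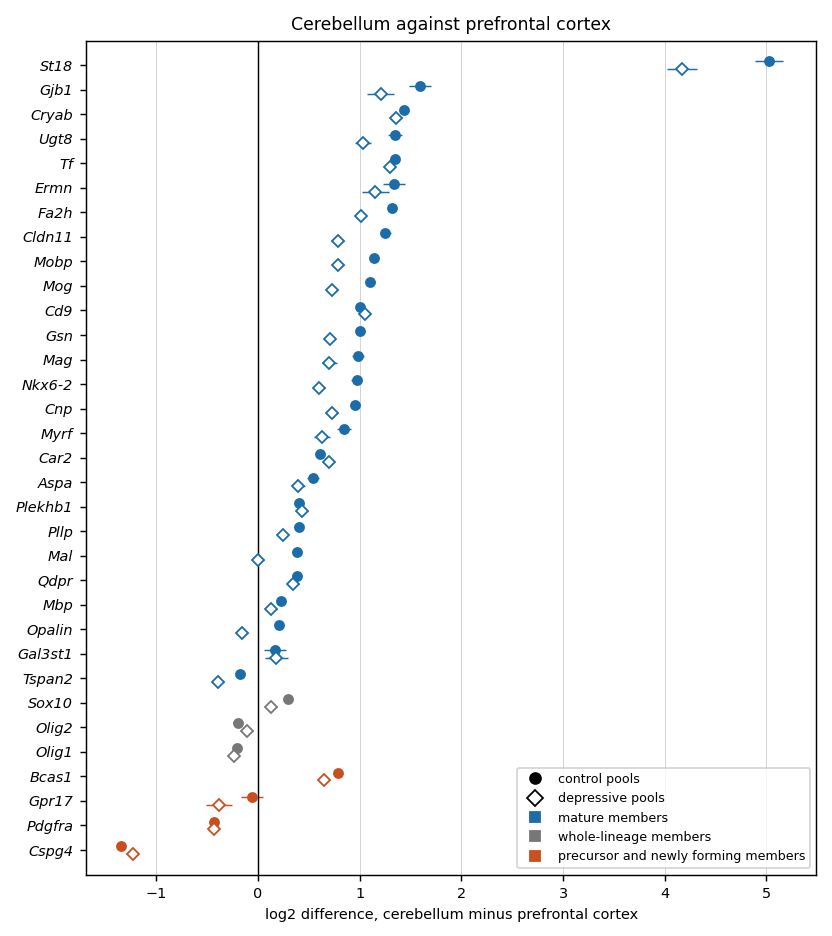
Log2 difference between cerebellum and prefrontal cortex for each of the 33 members, with filled circles for the control pools and open diamonds for the depressive pools. Lines are the SE between repeated spots of 1 array pair, which is technical error only, and colours give the stage. St18 stands far to the right at 5.03 and 4.17, and Cspg4 lies furthest to the left at -1.35 and -1.23.

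Among the proteins of compact myelin, Mobp, a small basic protein that packs the cytoplasmic faces together, had signals of 13049 and 14304 in control and depressive cerebellum and of 4586 and 6220 in control and depressive prefrontal cortex. Both cerebellar arrays lay far above both cortical arrays. The tissue difference was 0.96 ± 0.11 (SE, limma, adjusted p = 0.00444). Cldn11, which forms the tight junctions between myelin layers, had signals of 2948 and 2956 in cerebellum and of 960.2 and 1290 in cortex. Its difference of 1.02 ± 0.14 was also called (adjusted p = 0.00679). The tetraspanin Cd9 was 2.04-fold higher in the cerebellum (adjusted p = 0.000833) and Pllp, a proteolipid of myelin rafts, 1.25-fold (adjusted p = 0.0182, a call not made with no filter on dim probes).

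The other compact myelin genes were called lower or not called. Tspan2, a tetraspanin of early myelin, had signals of 10756 and 11301 in cerebellum and 9407 and 11131 in cortex. Once each array was scaled these gave a difference of -0.28 ± 0.08 (adjusted p = 0.0396). That call was not made with quantile normalization, median scaling, the percentile taken over probes, the deposited value table or no filter on dim probes. Mal, a raft proteolipid, differed by 0.19 ± 0.11 (adjusted p = 0.208), from 0.39 in the control pools and 0.0027 in the depressive pools. Opalin, a membrane glycoprotein, differed by 0.02 ± 0.11 (adjusted p = 0.862), from 0.21 and -0.16. Neither of these was called.

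Mbp, myelin basic protein, was near the top of the scanner's range. Its brightest probe had signals of 631297 and 660269 in cerebellum and 419652 and 452822 in cortex, and its difference of 0.18 ± 0.05 was not called (adjusted p = 0.056). The median pixels of its spots reached 78.2% to 83.1% of the highest value of any spot on any array in the cerebellum, and 48.7% to 59.7% in the cortex. A second Mbp probe, assigned to another transcript accession, ran the other way, with 446.8 and 431.1 in cerebellum and 1377 and 1367 in cortex. With the mean over both probes the difference was -0.93 ± 0.05 (adjusted p = 0.00139). With the brightest probe Mbp was called higher under normexp, quantile normalization, median scaling, the percentile over probes and the deposited value table, with adjusted p from 0.00272 to 0.0309. The 2 probes therefore disagree on the direction between tissues, and the direction of Mbp as a gene is not given.

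**Figure D2:**
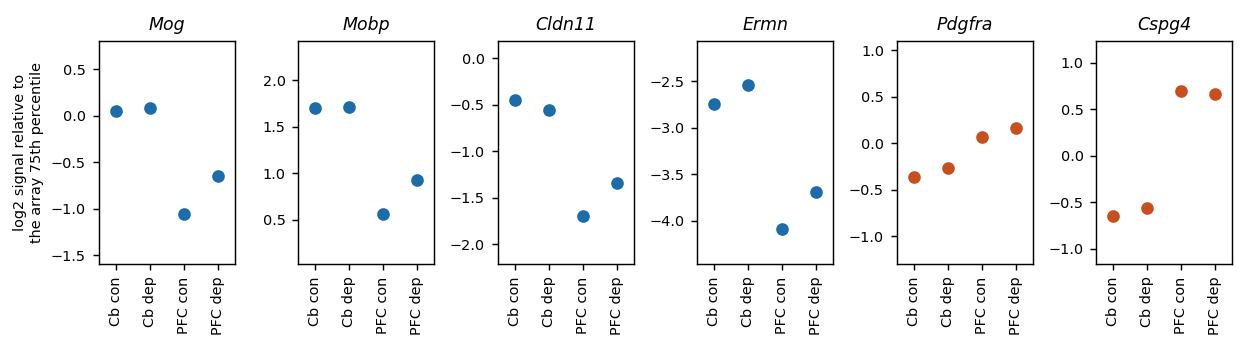
Log2 signal relative to the 75th percentile of the array for 6 members on the 4 arrays (Cb, cerebellum; PFC, prefrontal cortex; con, control; dep, depressive), with 1 point per array and axes of equal span. Mog, Mobp, Cldn11 and Ermn have both cerebellar points above both cortical points, and Pdgfra and Cspg4 have them below.

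The genes of the inner and outer faces of the myelin sheath were called higher in the cerebellum in 4 of 4 cases, beside 34.7% of all genes. Mog, the glycoprotein on the outermost lamella, had signals of 4170 and 4620 in cerebellum and 1504 and 2093 in cortex. The 2 tissues did not overlap, at a difference of 0.92 ± 0.11 (adjusted p = 0.0056). Mag, the adhesion molecule that faces the axon, had signals of 49481 and 54560 in cerebellum and 19387 and 25177 in cortex, a difference of 0.84 ± 0.09 (adjusted p = 0.00408). Cnp, an enzyme that keeps cytoplasmic channels open, was 1.79-fold higher (adjusted p = 0.00293). Ermn, an actin-binding protein of late myelination, was 2.37-fold higher (adjusted p = 0.00106).

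The enzymes of myelin lipids were called higher in the cerebellum in 4 of 4 cases, beside 34.7% of all genes. Fa2h, which hydroxylates the fatty acids of galactolipids, had signals of 5476 and 5673 in cerebellum and 1704 and 2111 in cortex. It was 2.24-fold higher (adjusted p = 0.00225). Ugt8, which makes galactosylceramide, was 2.29-fold higher (adjusted p = 0.00221), with signals of 933.6 and 973.9 against 284.4 and 356.1. Aspa, which frees acetate from N-acetylaspartate for lipid synthesis, was 1.38-fold higher (adjusted p = 0.00669). Gal3st1, which sulphates galactosylceramide, was 1.13-fold higher (adjusted p = 0.0438), a call that normexp and the fit without a filter did not make. The connexin Gjb1, which links the layers of the sheath, was 2.64-fold higher (adjusted p = 0.00228), with signals of 523 and 504.8 in cerebellum and 134 and 164 in cortex.

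Genes of metabolism, iron and the cytoskeleton were called higher in 6 of 6 cases, beside 34.7% of all genes. Cryab, a small heat shock chaperone of oligodendrocytes, was 2.64-fold higher (adjusted p = 0.000537). Tf, which encodes the iron carrier transferrin, had signals of 176870 and 204770 in cerebellum and 53969 and 62427 in cortex, 2.50-fold (adjusted p = 0.000541). The actin-severing protein gelsolin, from Gsn, was 1.81-fold higher and the carbonic anhydrase Car2 1.57-fold. Plekhb1 and Qdpr, the latter a reductase that recycles tetrahydrobiopterin, were 1.34-fold and 1.29-fold higher.

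Among the transcription factors, the 3 tied to the mature cell were called higher in the cerebellum (34.7% of all genes were) and the 3 of the whole lineage were not. St18, a zinc-finger factor of the myelin-forming cell, had signals of 2702 and 2764 in cerebellum and of 64.2 and 115 in cortex. No other member had so wide a gap, 5.03 in the control and 4.17 in the depressive pools on the log2 scale (limma 4.60 ± 0.24, adjusted p = 0.000905). Nkx6-2, a homeobox factor of mature oligodendrocytes, was 1.72-fold higher (adjusted p = 0.00781). Myrf, the regulator that switches on myelin genes, was 1.67-fold higher (adjusted p = 0.00373).

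Sox10, Olig1 and Olig2 are present from the precursor onwards. Sox10 had signals of 5156 and 5860 in cerebellum and 3248 and 4017 in cortex, and its difference of 0.21 ± 0.07 was not called (adjusted p = 0.0557). It was called higher with normexp, quantile normalization, median scaling, the percentile over probes and the deposited value table. Olig2 differed by -0.15 ± 0.05 (adjusted p = 0.0763), also not called. Olig1 was called lower in the cerebellum, by 0.22 ± 0.05 on the log2 scale (adjusted p = 0.0255), though not with quantile normalization, median scaling or no filter.

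Of the precursor genes, Cspg4 had signals of 2558 and 2961 in cerebellum and of 5040 and 5200 in cortex. Both cortical arrays were higher, by 2.44-fold after scaling (adjusted p = 0.000724). Pdgfra, the receptor for the platelet-derived growth factor that keeps precursors dividing, had signals of 3131 and 3643 in cerebellum and of 3266 and 3686 in cortex, 1.35-fold higher in the cortex after scaling (adjusted p = 0.00461). Gpr17, a receptor of cells about to mature, differed by -0.22 ± 0.10 and was not called (adjusted p = 0.126), although with normexp it was (-0.20 ± 0.06, adjusted p = 0.0265). Bcas1, a protein of newly forming oligodendrocytes, followed the mature members with a 1.64-fold higher level in the cerebellum (adjusted p = 0.00248).

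Further genes of myelin and of precursors were taken from lists that exclude the members. Of 39 further myelin genes 36 were measured, and 29 of these lay above 0 in the control pools (49.1% of all genes), with a median of 0.76. In limma's fit 24 of the 35 tested were called higher and 6 lower, beside the 34.7% and 38.0% of all genes given above. By the naming rule, Klk6, a secreted protease of oligodendrocytes, was higher (2.53 ± 0.15, adjusted p = 0.00115), as was the cytokine Il33 (2.09 ± 0.05, adjusted p = 0.000271). Pex5l, a peroxisomal import receptor-like protein that is also found in neurons, was lower (-2.57 ± 0.05, adjusted p = 0.000234). Of the 17 further precursor genes measured in the control pair 4 lay above 0 (49.1% of all genes), with a median of -0.31. Of 16 tested, 2 were called higher and 8 lower. Sox5 (-1.87 ± 0.05, adjusted p = 0.000304) and Sox6 (-1.46 ± 0.08, adjusted p = 0.000924), SOX factors that hold precursors immature, were lower in the cerebellum. Sox6 was dim, with signals of 44.4 and 45.4 in cerebellum and of 87.6 and 100.6 in cortex. The SE between repeated spots of its tissue difference was 0.36 in the control and 0.48 in the depressive pools, above that of the fit. The matrix proteoglycan Vcan was higher (1.25 ± 0.05, adjusted p = 0.000668).

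The second comparison set the depressive against the control pool within each tissue. In the prefrontal cortex nearly all mature members lay slightly above the control, and in the cerebellum they were spread around 0. Of 26 mature members 26 were above 0 in the cortex, with a median of 0.23 (1.17-fold) against -0.01 for all genes. With median scaling the count was 25, as Plekhb1 came to -0.01, and with the mean over probes it was also 25, as Mbp came to -0.02. In the cerebellum 12 of 26 were above 0, with a median of -0.03, as was that of all genes. Both are differences between single pools with no replicate. At 2-fold, 0 of 33 members were higher or lower in cortex (0.565% and 0.366% of genes) or in cerebellum (0.797% and 0.994%).

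In the prefrontal cortex 31 of 33 members were above 0 where 47.2% of 12572 genes were, and 11 of 33 were at least 1.2-fold higher where 6.05% of genes were. The count at least 1.2-fold lower was 0 (4.45% of genes). In the cerebellum 17 of 33 were above 0 (39.8% of 12680 genes), with 0 members at least 1.2-fold higher (4.94% of genes) and 0 lower (9.36% of genes). With the scanner files as linked, 4 members were at least 1.2-fold higher and 21 lower in the cortex, and 2 higher and 24 lower in the cerebellum.

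**Figure D3:**
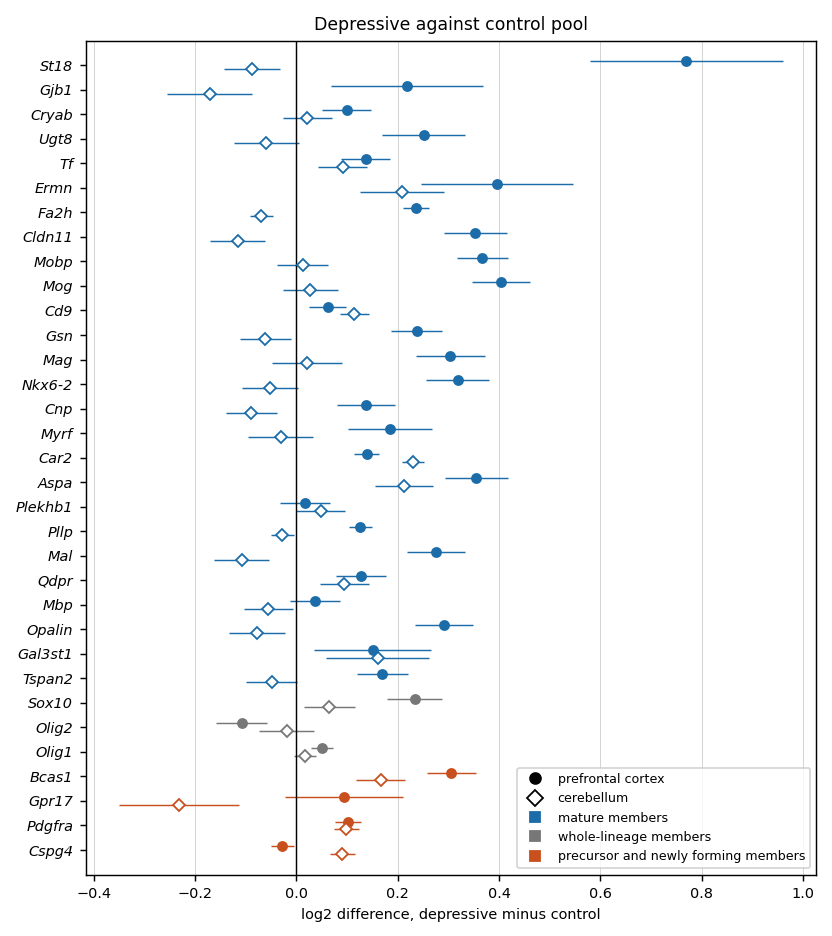
Log2 difference between the depressive and the control pool for each of the 33 members, with filled circles for prefrontal cortex and open diamonds for cerebellum, and lines for the SE between repeated spots. The cortical points lie to the right of 0 except for Olig2 at -0.11 and Cspg4 at -0.03, while the cerebellar points straddle 0.

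With the 2 tissues as replicates of the state comparison, limma's moderated test called 0 of 33 members and 0 of 11623 genes (0.0%). At an unadjusted p under 0.05 it found 904 genes (7.78%) and 5 of 33 members, and the lowest adjusted p of a member was 0.641. Those 5 were Aspa, Ermn, Bcas1, Car2 and Gal3st1, each above 0 in both tissues. A state difference found in only 1 tissue counts as error in this fit. With normexp background correction 5 genes were called, of which 0 were members.

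Of the compact myelin genes, Mobp was 1.29-fold higher in the depressive cortex (0.37 ± 0.05, SE between spots, here and below) and 1.01-fold in the depressive cerebellum. Its second probe gave 0.67 in cortex and 0.09 in cerebellum. Cldn11 was 1.28-fold higher in cortex (0.35 ± 0.06) and lay at -0.12 ± 0.05 in cerebellum. Mal (0.27 ± 0.06), with cortical signals of 1683 in the control and 2142 in the depressive pool, and Opalin (0.29 ± 0.06), with 2236 and 2876, also lay above 0 in cortex and below it in cerebellum (-0.11 and -0.08). Tspan2 was at 0.17, Pllp at 0.13, Cd9 at 0.06 and Mbp at 0.04 in cortex.

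For the faces of the sheath, the cortical difference was 0.40 ± 0.06 for Mog, 0.40 ± 0.15 for Ermn, 0.30 ± 0.07 for Mag and 0.14 ± 0.06 for Cnp. The first 3 of these genes passed 1.2-fold. In cerebellum Mog and Mag stood at 0.03 and 0.02 and Cnp at -0.09, within or near the spot error, and Ermn at 0.21 ± 0.08. Ermn had signals of 184 and 254 in control and depressive cortex and of 598.5 and 751.6 in control and depressive cerebellum, so that the depressive array was the higher in both tissues.

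Of the lipid enzymes, Aspa passed 1.2-fold in cortex (0.35 ± 0.06), with signals of 878.7 in the control and 1182 in the depressive pool. In cerebellum it was at 0.21 ± 0.06, with signals of 1648 and 2074. Ugt8 was at 0.25 ± 0.08 in cortex and -0.06 ± 0.06 in cerebellum, and Fa2h at 0.24 ± 0.03 and -0.07 ± 0.02. Gal3st1, measured by 1 spot per array, was at 0.15 ± 0.12 and 0.16 ± 0.10. The connexin Gjb1 was at 0.22 ± 0.15 in cortex and -0.17 ± 0.08 in cerebellum.

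The group of metabolism and cytoskeleton genes stood nearest 0 among the mature groups, with a cortical median of 0.13 and 0 of 6 genes at 1.2-fold. Gsn was at 0.24, Car2 and Tf at 0.14, Qdpr at 0.13, Cryab at 0.10 and Plekhb1 at 0.02. Car2 was the one member of this group with a larger difference in cerebellum than in cortex beyond its spot error, at 0.23 ± 0.02 against 0.14 ± 0.02.

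St18 had the largest cortical difference of the members, 0.77 ± 0.19 (1.70-fold), from a dim signal of 64.2 in the control and 115 in the depressive pool. In cerebellum it was at -0.09 ± 0.05. Nkx6-2 was at 0.32 ± 0.06 in cortex and -0.05 in cerebellum, Sox10 at 0.23 ± 0.05 and 0.06, and Myrf at 0.18 ± 0.08 and -0.03. Olig1 was at 0.05 and 0.02. Olig2 was the member furthest below 0 in cortex, at -0.11 ± 0.05.

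The precursor and newly forming genes had medians of 0.10 in cortex and 0.09 in cerebellum. Pdgfra was at 0.10 in both tissues, and Cspg4 at -0.03 and 0.09. Gpr17 was at 0.09 ± 0.12 in cortex and -0.23 ± 0.12 in cerebellum. Bcas1 was the one of the 4 that passed 1.2-fold in cortex, at 0.31 ± 0.05, with signals of 29481 in the control and 38324 in the depressive pool. It was at 0.17 ± 0.05 in cerebellum.

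**Figure D4:**
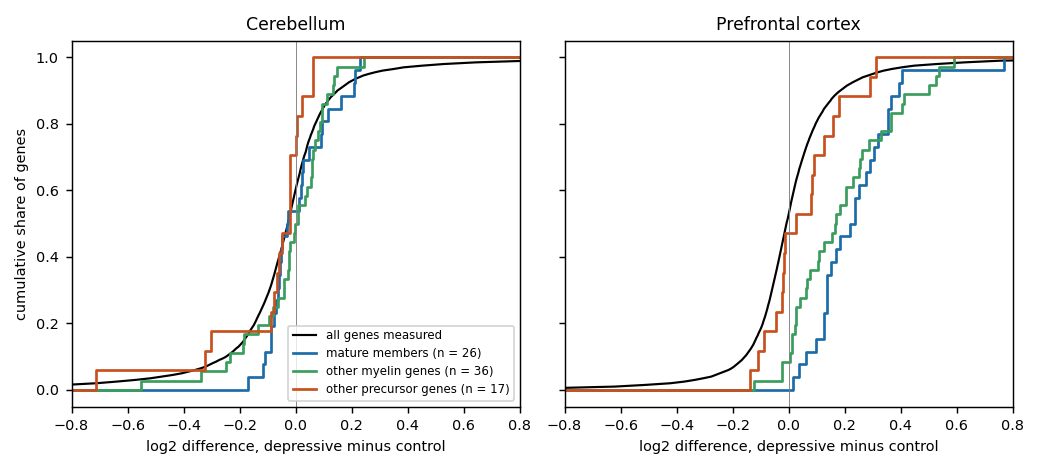
Cumulative share of genes by log2 difference between depressive and control pools, for all genes measured, the 26 mature members, 36 other myelin genes and 17 other precursor genes, in each tissue. In prefrontal cortex the curves of the mature members and of the other myelin genes lie to the right of that of all genes, with medians of 0.23 and 0.17, and in cerebellum they cross it near 0.

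The further myelin genes had the same layout. In cortex 33 of 36 were above 0 (47.2% of all genes), 10 were at least 1.2-fold higher (6.05%) and the median was 0.17. In cerebellum 18 of 36 were above 0 (39.8% of all genes) and the median was 0.00. Klk6 was at 0.59 ± 0.03 in cortex, with signals of 823.6 in the control and 1303 in the depressive pool, and at 0.07 in cerebellum. The proteoglycan-cleaving protease Adamts4 was at 0.53 ± 0.19 and the mechanosensitive channel Tmem63a at 0.52 ± 0.08. Of the 17 further precursor genes 9 were above 0 in cortex (47.2% of all genes), with a median of 0.03. Tnr, a matrix glycoprotein, was at 0.29 and Lims2 at 0.18.

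The third comparison was the state difference in cortex minus that in cerebellum, which single arrays leave without a test. It was above 0 in 27 of 33 members (57.0% of 13051 genes) and at least 1.2-fold above 0 in 13 of 33 (13.0% of genes), with a median of 0.22 over the mature members against 0.02 for all genes. The largest were St18 (0.86 ± 0.20), Cldn11 (0.47 ± 0.08), Gjb1 (0.39 ± 0.17) and Mal (0.38 ± 0.08). The same 4 values also describe how the gap between tissues differed between states. Of the 24 members at least 1.2-fold higher in control cerebellum (33.4% of genes were), 21 had a smaller gap in the depressive pools, where 66.7% of 4094 such genes did. State differences above 0 in both tissues were found in 16 members (22.2% of 12201 genes).

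Marker genes of other cells were read on the same arrays, since a slice can hold more or less of a neighbouring tissue. Meningeal fibroblast genes were above 0 in 14 of 14 cases in the depressive cortex (47.2% of all genes), with a median of 0.77. Their summed signal, in multiples of the 75th percentile, was 21.6 in control and 41.9 in depressive cortex, beside 98.3 and 107.4 in cerebellum. Most of each sum came from Ptgds, whereas the median counts each gene equally. Of the 3 brightest, Ptgds had signals of 51142 in control and 107600 in depressive cortex, Igf2 of 5558 and 11370, and Col1a2 of 3753 and 6861. These genes were also higher in cerebellum than in cortex, with medians of 1.72 in the control and 1.02 in the depressive pools. They thus lay on the same side of 0 as the mature members between tissues and between states in cortex. In cerebellum their median between states was 0.14, with 11 of 14 above 0 (39.8% of all genes), beside -0.03 for the mature members. The part of the meningeal genes in the result was not tested.

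In both states 12 of 12 choroid plexus genes were at least 2-fold higher in cerebellum than in cortex (10.3% and 9.27% of all genes). Their medians were 4.52 in the control and 5.45 in the depressive pools. Between states they had a median of -0.27 in cortex, with 3 of 10 above 0 (47.2% of all genes), and of 0.61 in cerebellum. Their summed signal in cortex was 9.87 in the control and 3.61 in the depressive pool. Ttr, the brightest of them, had cortical signals of 25617 and 6076. Red cell genes were higher in the depressive pool of both tissues, with medians of 2.30 in cortex and 2.82 in cerebellum. Neurons had a median of 0.04 in cortex, astrocytes -0.03, microglia -0.07 and endothelial and mural cells 0.09. The part of these lists in the myelin result was not tested.

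Schwann cells, which make the myelin of peripheral nerve, share several members with oligodendrocytes. Their 8 measured marker genes summed to 0.411 in control and 0.43 in depressive cortex, and to 0.0541 and 0.048 in cerebellum. Most of the cortical sum was Egr2, a zinc-finger factor that neurons also express, with signals of 1020 and 1123 in cortex (a state difference of 0.07) and not well above background in cerebellum. Ncmap and Cdh19 were not well above background on any array. Of the 6 genes measured in cortex 4 were above 0 (47.2% of all genes). The largest difference was that of Pmp2 (0.84 ± 0.45), from dim signals of 17.9 and 33.7. Pmp2, Ncmap and Cdh19 were singled out after their values were seen.

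**Figure D5:**
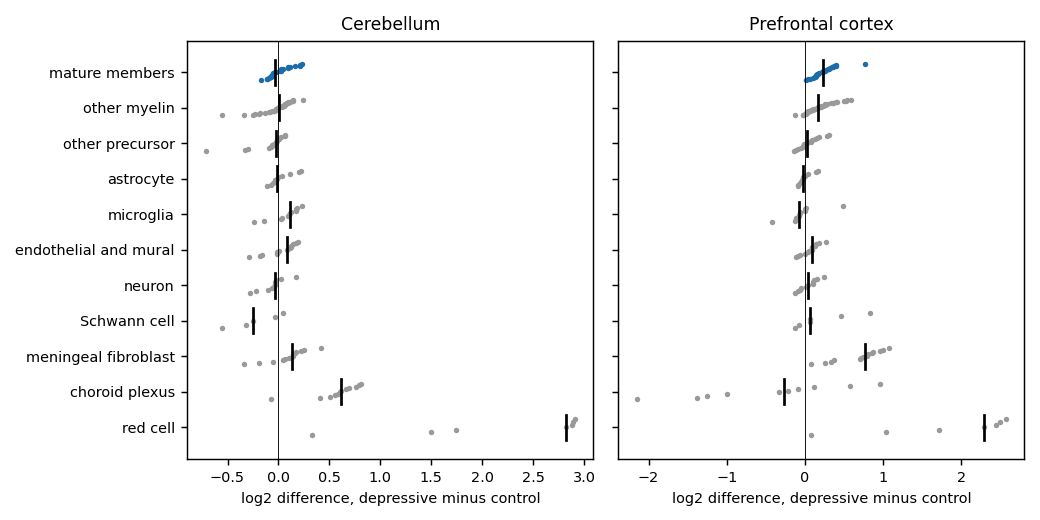
Log2 difference between depressive and control pools for the mature members (blue) and for marker lists of other cells (grey), with 1 point per gene and a black bar at the median, in cerebellum and in prefrontal cortex on separate scales. In cortex the meningeal fibroblast (0.77) and red cell (2.30) medians lie above that of the mature members (0.23), and the other lists lie nearer 0 or below it.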

How the data were processed

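RNA was hybridised to 4 one-colour Agilent arrays of 1 slide, 1 pool of 4 rats per array. Per the file headers, Agilent Feature Extraction 10.7.1.1 read the scans, and the deposited scanner files hold a background-subtracted processed intensity per spot together with flags for outlier, saturated and above-background spots. The deposited value table holds the authors' scaled linear intensity per probe, with its scale and its choice of probes not given in the sources used here. Each column of that table was correlated with each scanner file, and matched 1 file at r of 0.9999 or more. For 2 samples this was not the linked file, and the table, which the file names follow too, was used.

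Outlier spots and controls were dropped. Spots of the same probe were averaged on the log2 scale, and the 75th percentile over all spots of the array was subtracted. A probe counted as well above background where at least 50% of its spots carried that flag, and a difference was computed where the gene was so on either array. Of 30364 probes 18355 were named through their RefSeq accession, giving 15443 genes, and the brightest probe stood for a gene. The SE between arrays is that of repeated spots, estimated within 10 bins of brightness, and covers technical error only.

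Differences between 2 arrays have no test. The layout of both factors was fitted with limma 3.58.1 in R 4.3.3 (lmFit and eBayes) with additive terms for state and tissue, for the 11623 genes that stood well above background on each of the 4 arrays. This leaves 1 residual degree of freedom and takes the states or tissues as each other's replicates. The tissue term was run on simulated data with independent noise and equal tissue changes in both states, which cannot test that assumption. P-values were adjusted by Benjamini-Hochberg over all these genes. Pools share no stated replicate. The residual of this fit is how far the state difference differs between the tissues. Its SE and p-values therefore measure no spread between rats or between pools of a group.

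The members, gene lists and tests were chosen with earlier results of these data known. All members are named. Of the further myelin and precursor lists, the 3 genes with the largest tissue difference and the 3 with the largest cortical state difference are named, of marker lists the brightest 3, and others by counts. Some genes that this rule would name are not reported here. Alternatives were normexp (offset 50) on the median spot signal, quantile normalization, median scaling, the 75th percentile over probes (chosen after seeing the data), the mean over probes, other filters on dim probes, the value table and the files as linked. Promoter motifs were searched in RefSeq windows with Python 3.11.15.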

Additional observations from a re-analysis of the deposited data

Results flagged for a closer look

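For 2 members the depressive and control pools differed in opposite directions in the 2 tissues, each time by more than 2 times the SE between repeated spots. Cldn11 was higher in the depressive pool in prefrontal cortex and lower in cerebellum, and the cortical difference exceeded the cerebellar one by 0.47 on the log2 scale. Fa2h did the same, by 0.31, and its second, dimmer probe gave 0.48 in cortex and -0.17 in cerebellum. With 1 array per group, neither of these differences between tissues was tested.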

How the results depend on the processing

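No paired analysis was possible because each group is 1 array and the labels give no replicate numbers. Leaving out a replicate was likewise impossible. The alternative of naming genes from a symbol column was not run, as the scanner files used here hold no such column, and normexp was run on the median spot signal, as no mean signal was among the columns used here. The mean over probes, the percentile over probes and the deposited value table left every median and count of members within the spot error or within 1.5 times. This does not hold for the counts over all genes below. A filter to genes above background on every array could not change the values of members, as all 33 pass it.

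With normexp, quantile normalization and median scaling, the median tissue difference of the mature members in the control pools was 0.92, 1.04 and 1.04, and in the depressive pools quantile normalization and median scaling gave 0.81 and 0.80. The precursor medians were -0.19 (quantile) and -0.18 (median scaling) in the control pools and -0.35, -0.33 and -0.31 (normexp, quantile, median scaling) in the depressive pools. Normexp left 3 members at least 2-fold higher in the depressive pools and gave a precursor median of 0.04 between states in cortex. The members called lower between tissues by limma were 2 with quantile normalization, with median scaling and with no filter on dim probes. Quantile normalization shifted the median of all genes in the depressive pair by 0.12. Among all genes at least 2-fold apart between states in cerebellum, 44.5% were higher, 81.2% with normexp, 59.8% with quantile normalization and 83.7% (36 higher, 7 lower) over genes above background on every array. In cortex the share was 60.7%, 71.4% with normexp and 72.7% with that filter. The cause of these shifts was not tested.

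With the files as linked, 2 arrays exchange places. Under the reading followed, the tissue comparisons below then set 2 arrays of the same tissue against each other, and the state comparisons set 2 tissues. Of the medians and counts of members 18 moved, 2 reversed and 2 stayed the same. The mature and precursor medians were 0.03 and -0.09 between tissues in the control pools and -0.23 and -0.10 in the depressive pools, with 0 members at 2-fold in either direction. Between states they were -0.98 and 0.24 in cerebellum, with 2 members higher and 24 lower, and -0.70 and 0.41 in cortex, with 4 higher and 21 lower. Limma called 0 members higher and 0 lower between tissues, and 4 higher and 23 lower between states. Values that reversed between tissues in the control pools were those of Mobp (-0.01), Cd9 (-0.11), Mog (-0.03), Ermn (-0.21), Tf (-0.09) and Cryab (-0.02). In the depressive pools they were Cd9 (-0.06), Ermn (-0.40), Ugt8 (-0.25), Fa2h (-0.24), Gjb1 (-0.22), Tf (-0.14), Cryab (-0.10), St18 (-0.77) and Cspg4 (0.03). Between states in cortex they were Mobp (-0.79), Cldn11 (-0.78), Mal (-0.0027), Mag (-0.70), Mog (-0.73), Ermn (-1.15), Aspa (-0.40), Nkx6-2 (-0.60), St18 (-4.17) and Bcas1 (-0.64).

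All members were well above background. State differences of members were under 2-fold and rest on single pools.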

Other observations

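Probes of 1 gene gave values of unequal size for several members. The dimmer Mag probe, which has 10 spots, gave 0.94 between tissues in the control pools and 0.29 between states in cortex, beside 0.98 and 0.30 for the brighter probe, which has 1. The dimmer Bcas1 probe gave 0.22 between states in cortex and 0.16 in cerebellum, near the 0.31 and 0.17 of the brighter one. The dimmer Opalin probe gave 0.15 in cortex and 0.05 in cerebellum, against 0.29 and -0.08. The dimmer Olig2 probe had signals of only 23.5 to 35.1 over the 4 arrays and gave -0.17 in cortex and 0.46 in cerebellum.

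Among the further myelin genes, chosen here after their values were seen, the lipocalin Apod stood at 0.41 in cortex and 0.03 in cerebellum.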
